A study of Homo sapiens with 18 samples.

Results

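In a study of the long noncoding RNA PURPL in BJ cells, an established line of human skin fibroblasts, each of the overexpression and knockdown experiments had a control culture of its own, and these controls were compared with each other. Ctrl is the control of the overexpression experiment and sgCtrl is the control guide of the knockdown experiment by CRISPR interference, a method that brings a repressor to a gene with a guide RNA and reduces its transcription. The members are the 3 Ctrl and 3 sgCtrl libraries, 6 of 18 in all, chosen by their labels alone. The other 12 libraries are 3 each of the guides sgPURPL-1 and sgPURPL-2 and of the overexpressing cultures PURPL-OE-1 and PURPL-OE-2, and they are used only to show where other libraries of the same experiments lie. All 18 are BJ cells with no further treatment named.

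The labels name neither the vectors, the repressor nor the guide sequence. They do not give passage, time or selection, and do not say whether a culture is a clone or a pool. They also do not say whether replicates are separate cultures, so every p-value here rests on the spread between libraries alone, which may be technical. Each control was deposited in the table of its own experiment, so vector, culture and experiment cannot be told apart in any difference given here. The labels list the molecule as genomic DNA, but their protocol describes poly(A) RNA, and the protocol was followed.

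Dermal fibroblasts build the collagen, fibronectin and elastic fibre network of the skin and remodel it with proteases. They answer viral nucleic acid with interferon-stimulated genes, and interleukin-1 and NF-kB signals with secreted chemokines and IL6, a set that senescent fibroblasts also secrete. They hold a stable record of their place in the body in HOX and other homeobox genes. Cultured fibroblasts also carry inhibitors that slow the cell cycle after damage, and cholesterol and ribosome programs that follow growth.

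Levels are CPM, a gene's counts divided by the scaled library total and set to a common total. Differences are log2 Ctrl minus sgCtrl with an approximate standard error (SE), so a positive value is higher in Ctrl. The SE is the size of the difference divided by the square root of the test's F statistic. It can be too small where a control has few counts, as for POSTN, CXCL8 and AJUBA. Total counts were 25125710, 24683260 and 19316454 in Ctrl and 11490437, 12892522 and 12853912 in sgCtrl. Adjusted p-values come from edgeR's quasi-likelihood test over all 14215 genes tested, with a threshold of 0.05. A gene that partly overlaps another on its strand loses the shared reads in these tables, and its values are uncertain. Of the genes named below this holds for ACTA2, APOE, APP, BBC3, CD46, DPT, GLB1, HOXA11-AS, IFI6, MALAT1, MDM2, PDGFRA, PECAM1, RPL13A, SREBF1, STAT2, THBS1, TOP2A and ZNF10, and for those called uncertain by overlap where they are described. A gene nested in another on its strand has 0 counts in every library, whatever its level. Levels are not compared between genes, because the tables give only the whole gene span and no transcript length.

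The controls shared the outline of a matrix-producing fibroblast. Of the 20 genes with most counts in each control, 15 were the same, among them IGFBP5, an insulin-like growth factor binding protein, the proteoglycan LUM, the matrix protein THBS1, the collagens COL1A2 and COL12A1 and the nuclear RNA MALAT1. These genes were chosen by their counts, after the values were seen. IGFBP5 took 0.894%, 0.865% and 1.01% of counts in Ctrl and 1.02%, 1.15% and 1.14% in sgCtrl, and the groups did not overlap. LUM took 0.860%, 0.798% and 0.930% in Ctrl and 0.629%, 0.540% and 0.526% in sgCtrl. In a fit with an offset that takes out each library's trend with the GC content of transcripts, the GC offset, neither gene passed the test (adjusted p = 0.553 and 0.127). COL12A1 measured 3369, 3427 and 3217 CPM in Ctrl and 2768, 3497 and 3842 CPM in sgCtrl, with overlapping groups and a log2 difference of -0.01 ± 0.10 (SE, adjusted p = 0.906).

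FN1, the fibronectin gene, was among the 20 in Ctrl only. It took 0.965%, 0.976% and 0.878% of counts in the Ctrl libraries and 0.191%, 0.229% and 0.228% in the sgCtrl libraries. The groups lay far apart, by 2.12 ± 0.09 (SE, n = 3 against 3, adjusted p = 1.25e-16). SULF1, an enzyme that trims heparan sulfate chains, COL6A3, COL1A1 and the integrin ITGB1 were also on the Ctrl list alone, and APP, MT-CO2, CCND1, FTH1 and RPL13A on the sgCtrl list alone. Transcripts of the mitochondrial genome made up between 4.26% and 4.80% of Ctrl counts and between 4.46% and 5.14% of sgCtrl counts.

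The label of fibroblast held in both controls. Of 20 fibroblast identity genes 19 were tested, and DPT was below the count filter. All 19 passed the test, 10 higher in Ctrl and 9 in sgCtrl, and with the GC offset 12 were higher in Ctrl and 2 in sgCtrl. Without the offset 70.6% of all genes tested passed, 34.9% higher in Ctrl and 35.7% higher in sgCtrl. PDGFRA, a growth factor receptor of mesenchymal cells, measured 339, 326 and 369 CPM in Ctrl and 70.2, 82.4 and 76.1 CPM in sgCtrl, a difference of 2.18 ± 0.08 (SE, adjusted p = 9.23e-18) in a gene that is uncertain by overlap. The small proteoglycan DCN measured 1786, 1848 and 1523 CPM against 451, 414 and 404 CPM. VIM, the intermediate filament of mesenchymal cells, went the other way, with 1388, 1673 and 1342 CPM in Ctrl and 2414, 2353 and 2104 CPM in sgCtrl. THY1 and PDGFRB lay closest together among the identity genes, at -0.32 ± 0.09 (adjusted p = 0.00192) and -0.24 ± 0.08 (adjusted p = 0.00648). Both turned with the GC offset, to 0.38 (adjusted p = 0.000428) and 0.49 (adjusted p = 5.97e-06). Without Ctrl replicate 1 PDGFRB was at -0.21 (adjusted p = 0.0536).

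Some defining markers of other cell types had 0 counts, others had few, and a few markers carried the summed level of each list. With 0 counts in all 6 libraries were 4 of 16 keratinocyte, 1 of 8 melanocyte, 1 of 10 endothelial and 4 of 12 immune markers. KRT5, KRT14, KRT1 and KRT6A of keratinocytes, MLANA of melanocytes, CLDN5 of endothelium, and CD3E, CD3D, MS4A1 and TYROBP of blood cells had 0 counts in all 6 libraries. PECAM1 had 32 counts over the Ctrl libraries and 9 over the sgCtrl libraries, and CDH5 had 0 and 2. KDR of endothelium had 33 and 6, FCER1G of blood cells 30 and 7, and CDH1 of keratinocytes, uncertain by overlap, 68 and 18. The summed keratinocyte list reached 745 to 789 CPM in Ctrl and 645 to 672 CPM in sgCtrl, most of it from DSP and PERP. These 2 genes went opposite ways. DSP measured 555, 520 and 545 CPM in Ctrl and 209, 256 and 274 CPM in sgCtrl, and PERP 221, 211 and 219 CPM against 430, 361 and 376 CPM. Of 6 tested keratinocyte markers 1 was higher in Ctrl and 4 in sgCtrl, with and without the GC offset. Summed immune markers lay at 2.16 to 3.42 CPM and 1.72 to 3.46 CPM, and endothelial markers at 5.70 to 5.94 CPM and 4.34 to 7.36 CPM. Melanocyte markers summed to 74.1 to 76.5 CPM and 60.9 to 73.6 CPM, and pericyte and smooth muscle markers to 164 to 170 CPM and 153 to 164 CPM. Of the melanocyte list MITF measured 52.4, 56.4 and 54.8 CPM in Ctrl and 50.5, 58.6 and 59.8 CPM in sgCtrl, and KIT 20.9, 19.1 and 20.4 CPM and 10.1, 11.6 and 12.9 CPM. Of the pericyte list ABCC9, uncertain by overlap, measured 125, 120 and 134 CPM and 60.9, 66.6 and 75.3 CPM. Most tested members of that list went the other way. Among 7 tested, 2 were higher in Ctrl, ABCC9 among them, and 4 in sgCtrl, with and without the GC offset. The list median was -0.69, and -0.20 with the GC offset. Of 8 markers of HEK293, a line used to package vectors, PRAME had 0 counts. SOX2 is nested in another gene, so that its 0 counts say nothing of its level. Only CPA4 of the 8 was tested, at 44.6, 48.4 and 52.7 CPM in Ctrl and 175, 191 and 197 CPM in sgCtrl. Over the Ctrl and the sgCtrl libraries NEFM had 40 and 8 counts, CRABP1 7 and 0, and LIN28B 3 and 0. NEFL and NELL2, uncertain by overlap, had 27 and 20 and 2 and 6. The summed list, 46.1 to 53.8 CPM in Ctrl and 175 to 199 CPM in sgCtrl, is nearly all CPA4. It therefore gives the level of that gene and not of HEK293 markers as a group.

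The controls differed across most of the transcriptome. Of 14215 genes tested, 10034 passed, 4963 higher in Ctrl and 5071 higher in sgCtrl. At a difference of 2-fold or more these were 1226 (8.62%) and 2379 (16.7%), together 25.4%. The 3 libraries of Ctrl did not overlap those of sgCtrl in 10496 genes (73.8%). On the first principal component, with 88.2% of the variance, the controls were parted. The next, with 4%, set sgCtrl replicate 1 apart from all others, and 9902 genes passed without that library. The median gene spanned 0.19 log2 units over the 3 Ctrl libraries and 0.25 over the 3 sgCtrl libraries, against a median absolute difference of 0.54 between the controls.

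The difference followed base composition. In the quartile of genes with the lowest GC content of the longest transcript (26.7% to 41.6%) the median difference was 0.41, and 62.4% of genes were higher in Ctrl and 10.01% in sgCtrl. In the quartile with the highest GC content (55.1% to 73.9%) the median was -1.02, with 6.07% higher in Ctrl and 77.6% in sgCtrl. The gap between these quartiles had the same sign in every library of an experiment: it was 0.55 to 0.74 log2 units in the 9 libraries of the knockdown table and -0.69 to -0.48 in the 9 of the overexpression table. Whether cells or library preparation set this gradient was not tested. A second fit therefore removed, in each library, the smooth trend of counts with GC content (the GC offset, chosen after the data were seen). It left 8615 of 14027 genes with a GC value past the threshold (61.4%), 4360 (31.1%) higher in Ctrl and 4255 (30.3%) in sgCtrl, and at 2-fold or more 1207 (8.6%) and 1009 (7.19%). A further offset on gene span, which also followed the difference, left 61.2% past the threshold, 30.2% higher in Ctrl and 30.9% in sgCtrl, and at 2-fold or more 8.5% and 6.69%. Values with the GC offset alone stand beside each group below. Counts of list members are to be read beside the shares over all genes. These are 34.9% higher in Ctrl and 35.7% in sgCtrl, and 31.1% and 30.3% with the GC offset.

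**Figure D1:**
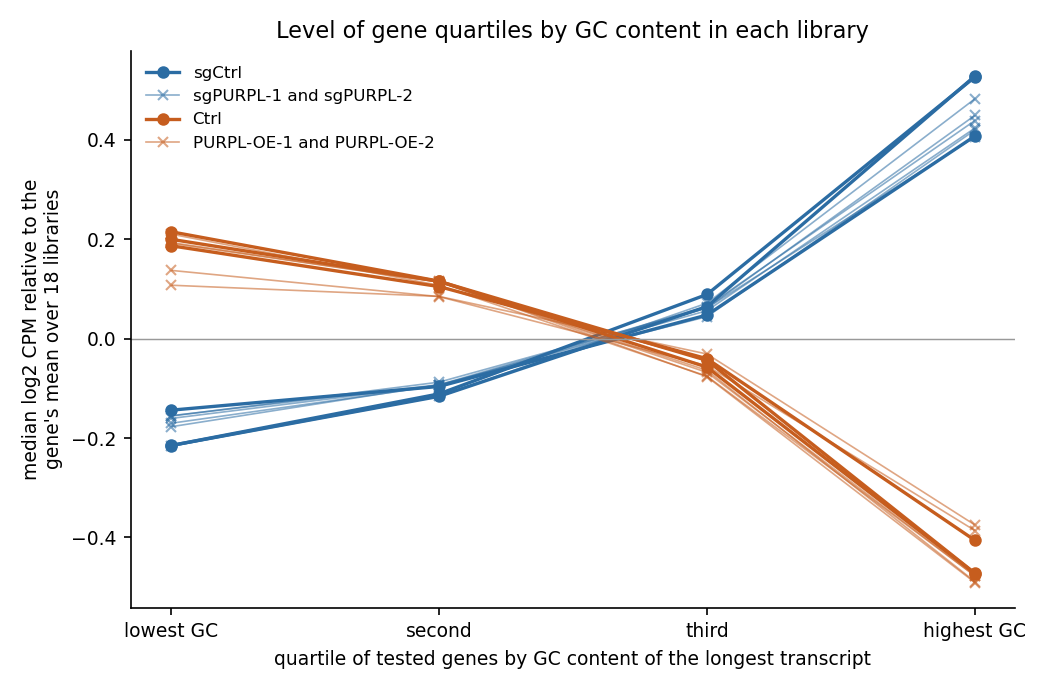
Median log2 CPM of the tested genes in each quartile of GC content (horizontal axis, lowest to highest), relative to each gene's mean over 18 libraries, with 1 line per library. Lines of all 9 libraries of the knockdown table, sgCtrl among them, climb with GC content and lines of all 9 libraries of the overexpression table, Ctrl among them, descend.

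Much of the difference ran between the experiments as a whole. Of the genes higher in Ctrl, 63.6% also had all 6 PURPL-OE libraries above all 6 sgPURPL libraries, where 28.1% of all tested genes did, and 4.13% had the opposite order. Of the genes higher in sgCtrl, 75.7% had all 6 sgPURPL libraries above all 6 PURPL-OE libraries, where 32.6% of all tested genes did, and 2.13% the opposite. With the controls added, all 9 libraries of the overexpression table lay above all 9 of the knockdown table in 19.7% of tested genes, and below them in 24.4%. The 12 libraries differ from each other in PURPL level and in the gradient with GC content as well as in experiment. These orders, here and below, come from levels without the GC offset.

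ZIM3 marked the knockdown cultures. ZIM3 (chr19:57134096-57145202 in hg38) encodes a zinc finger protein whose KRAB domain is a widely used CRISPR interference repressor. It had 2037, 2975 and 2322 counts in the sgCtrl libraries (176, 231 and 181 CPM) and 0 in all Ctrl libraries, at least 4538-fold higher in sgCtrl with the floor set at 3 counts over the group. The sgPURPL libraries held 90.9 to 319 CPM and the PURPL-OE libraries 0. ZNF10, which carries the other KRAB domain in wide use, had 12 counts over the Ctrl libraries and 11 over the sgCtrl libraries. TERT (chr5:1253147-1295068), the catalytic subunit of telomerase, had 8, 9 and 7 counts in Ctrl and 0 in sgCtrl, at least 4.31-fold higher in Ctrl.

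PURPL itself (chr5:27217714-27496994) was lower in Ctrl than in sgCtrl by a small margin. It measured 68.8, 68.7 and 60.3 CPM in Ctrl and 71.0, 76.8 and 94.0 CPM in sgCtrl. The groups did not overlap, and the difference was -0.29 ± 0.09 (SE, adjusted p = 0.00547). It was -0.17 (adjusted p = 0.07022) without sgCtrl replicate 3, which ended the call, and -0.74 (adjusted p = 7.95e-08) with the GC offset.

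**Figure D2:**
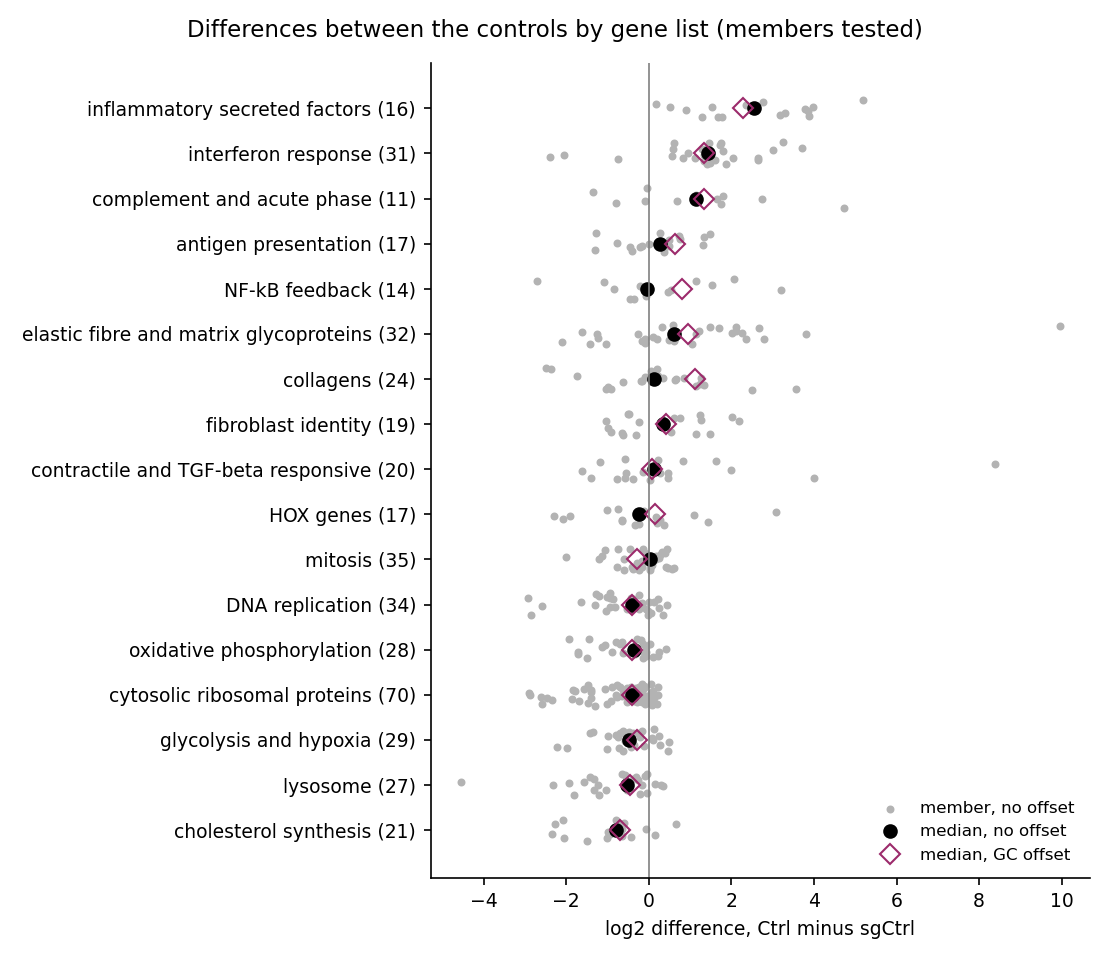
Log2 difference, Ctrl minus sgCtrl, of each tested member of 17 gene lists (grey points, number tested in brackets), with the list median without an offset (black) and with the GC offset (open diamond). Inflammatory, interferon and complement medians lie right of 0 in both fits and cholesterol, lysosome and ribosomal protein medians left of 0; the point of ACTG2 at the right of the contractile list is a fitted value with 0 counts in sgCtrl and gives no size.

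Interferon-stimulated genes were higher in Ctrl almost throughout the list. Of 31 tested members 28 were higher in Ctrl and 3 in sgCtrl, with a median difference of 1.44 beside 0.02 for all genes. With the GC offset the counts were 28 and 1 and the median 1.35. In 24 of the tested members a promoter, here the 250 bases before the RefSeq start (GRCh38.p14), could be looked up. The core of the interferon-stimulated response element, GAAANNGAAA on either strand, stood in 15 of these 24 (62.5%), against 2.51% of 10388 promoters of tested genes and 3.07% of all 27305 in the table. The list was chosen as interferon-stimulated genes, so this excess does not bear on the difference between the controls. The core stood in 13 of 22 promoters of members higher in Ctrl and in 2 of 2 of those higher in sgCtrl. A match is only a match of letters and says nothing of binding. The promoters of IFI44L (chr1:78620198-78620447, plus strand) and ISG15 (chr1:1013247-1013496, plus strand) are shown because they hold the same element and belong to genes that differed in opposite directions. The window of RSAD2 held no match to these letters. Capitals mark the matches, which overlap each other in ISG15.
IFI44L: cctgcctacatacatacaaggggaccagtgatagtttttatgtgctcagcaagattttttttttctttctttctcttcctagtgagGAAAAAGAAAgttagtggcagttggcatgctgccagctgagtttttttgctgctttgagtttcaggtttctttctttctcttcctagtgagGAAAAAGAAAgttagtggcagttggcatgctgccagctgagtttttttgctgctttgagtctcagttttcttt
ISG15: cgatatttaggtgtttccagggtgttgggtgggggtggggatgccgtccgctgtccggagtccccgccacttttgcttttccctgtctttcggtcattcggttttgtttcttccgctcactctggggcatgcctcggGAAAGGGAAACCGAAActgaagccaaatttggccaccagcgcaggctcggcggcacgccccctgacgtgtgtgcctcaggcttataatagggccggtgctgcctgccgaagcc

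RSAD2 (chr2:6865557-6898239), an enzyme that makes a chain-terminating nucleotide against viral RNA synthesis, measured 332, 318 and 318 CPM in Ctrl and 24.8, 23.4 and 26.0 CPM in sgCtrl. The groups lay 3.71 ± 0.08 apart (SE, adjusted p = 8.22e-22), and 3.40 apart with the GC offset. IFI44L (chr1:78619902-78646145), an interferon-induced regulator of the antiviral response, measured 572, 550 and 551 CPM against 68.3, 67.0 and 73.2 CPM, a difference of 3.005 ± 0.08 (adjusted p = 2.02e-20). IFIH1, a sensor of long double-stranded RNA, measured 956, 880 and 1021 CPM against 159, 148 and 148 CPM, and OASL, of the oligoadenylate synthetase family, 13.4, 13.6 and 13.99 CPM against 1.82, 1.24 and 1.25 CPM. In all 4 genes every Ctrl library lay above every sgCtrl library. Even the members closest to 0, IFITM3, which blocks viral entry, and the signal transducer STAT2, differed by 0.55 ± 0.09 and 0.59 ± 0.08, and by 1.20 and 0.66 with the GC offset.

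The 3 exceptions are named after their values were seen. ISG15 (chr1:1001138-1014540), a ubiquitin-like modifier, measured 31.7, 38.4 and 46.9 CPM in Ctrl and 234, 200 and 179 CPM in sgCtrl. Its difference was -2.39, and -0.88 with the GC offset. IRF7, a transcription factor of the interferon response, measured 0.637, 0.805 and 0.999 CPM against 3.90, 3.02 and 3.12 CPM, a difference of -2.05 that shrank to -0.09 with the GC offset. IFI6 measured 224, 221 and 240 CPM against 441, 383 and 329 CPM, at -0.75, and at -0.19 with the GC offset.

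The interferon difference did not run between the experiments as a whole. Of the 28 genes higher in Ctrl, none had all PURPL-OE libraries above all sgPURPL libraries, and 26 had the opposite order. Among all genes higher in Ctrl these shares were 63.6% and 4.13%. RSAD2 measured 1.29 to 2.998 CPM in the PURPL-OE libraries and 31.7 to 45.2 CPM in the sgPURPL libraries, so that Ctrl stood above both and sgCtrl lay near the sgPURPL libraries. IFI44L had the same order, with 17.3 to 22.4 CPM in the PURPL-OE and 105 to 151 CPM in the sgPURPL libraries.

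Secreted inflammatory factors were also higher in Ctrl. Of 16 tested members 14 were higher in Ctrl and 0 in sgCtrl, with a median difference of 2.56, and with the GC offset 16 and 0 with a median of 2.28. CXCL8 (chr4:73740519-73743716), the main neutrophil chemokine, measured 16.9, 18.3 and 18.4 CPM in Ctrl and 0.260, 0.388 and 0.781 CPM in sgCtrl, at 5.19 ± 0.22 (SE, adjusted p = 6.54e-17). IL6 (chr7:22725884-22732002), a cytokine of the acute phase, measured 14.98, 16.4 and 14.4 CPM against 1.47, 0.620 and 1.02 CPM, at 3.89 ± 0.20 (adjusted p = 3.04e-15). The chemokine CXCL6, uncertain by overlap, measured 2.55, 1.73 and 2.42 CPM against 0.346, 0.0776 and 0 CPM. CCL7, a monocyte chemokine, had 60 counts over the Ctrl libraries and 2 over the sgCtrl libraries. The groups of all 4 genes did not overlap. IL1B and the monocyte chemokine CCL2 had the smallest differences among members of at least 10 CPM, at 0.91 ± 0.14 and 1.67 ± 0.08.

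The other cultures of either experiment did not share the level of Ctrl. CXCL8 lay at 0.540 to 1.21 CPM in the PURPL-OE libraries and 1.49 to 2.24 CPM in the sgPURPL libraries, and IL6 at 1.61 to 2.46 CPM and 0.776 to 2.04 CPM. Of the 14 genes higher in Ctrl, 3 had all PURPL-OE libraries above all sgPURPL libraries and 5 the opposite order, beside 63.6% and 4.13% of all genes higher in Ctrl. The list was chosen as inflammatory factors, so an excess of the NF-kB consensus site in it does not bear on the difference between the controls. The letters searched were GGGRNNYYCC, with R for A or G, Y for C or T and N for any base. On either strand they stood in 7 of 14 promoters of tested members (50%), against 11.45% of promoters of tested genes and 9.57% of all. The windows of CXCL1, a neutrophil chemokine (chr4:73869143-73869392, plus strand, named after its values were seen), and IL6 (chr7:22726950-22727199, plus strand) are shown as 2 of these, with the match in capitals, in CXCL1 of 2 matches that overlap.
CXCL1: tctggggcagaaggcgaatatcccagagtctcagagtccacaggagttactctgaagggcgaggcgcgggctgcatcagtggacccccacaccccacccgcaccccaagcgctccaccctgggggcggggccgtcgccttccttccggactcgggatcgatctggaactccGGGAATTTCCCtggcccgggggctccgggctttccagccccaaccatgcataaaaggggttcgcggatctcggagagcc
IL6: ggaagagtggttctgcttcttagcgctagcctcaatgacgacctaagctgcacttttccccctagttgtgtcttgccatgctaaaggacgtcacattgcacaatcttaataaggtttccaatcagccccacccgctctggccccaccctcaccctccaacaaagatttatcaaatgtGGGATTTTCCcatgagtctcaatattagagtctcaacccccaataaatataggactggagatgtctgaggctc

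CXCL1 measured 28.5, 32.8 and 38.7 CPM in Ctrl and 2.77, 2.56 and 1.95 CPM in sgCtrl, at 3.78 ± 0.15 (SE, adjusted p = 4.11e-17). The window of CXCL8 held no match to the NF-kB letters GGGRNNYYCC. A site that departs from these letters would not be found by this search. Genes of the NF-kB pathway and its feedback, the subunit NFKB2 among them, were split, with 6 of 14 higher in each control (median -0.04). Under the GC offset 10 were higher in Ctrl and 2 in sgCtrl, with a median of 0.81. BIRC3, an inhibitor of cell death, measured 25.1, 24.4 and 25.5 CPM in Ctrl against 2.86, 2.48 and 2.73 CPM in sgCtrl. The inhibitor NFKBIB was higher in sgCtrl, at 6.93, 5.97 and 5.23 CPM against 1.35, 0.644 and 0.736 CPM, a difference of -2.70 that was -1.58 with the GC offset.

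Complement genes were higher in Ctrl, 7 of 11 tested, against 2 higher in sgCtrl, with a median of 1.14, and 7 and 3 with a median of 1.335 under the GC offset. C3 (chr19:6677704-6730562), the central complement protein, measured 179, 194 and 191 CPM in Ctrl and 7.27, 6.75 and 7.26 CPM in sgCtrl, at 4.73 ± 0.09 (SE, adjusted p = 7.18e-23), and 5.32 with the GC offset. C3 is uncertain by overlap, as are C1R and C1S, the proteases that start the classical pathway, at 1.80 ± 0.08 and 1.74 ± 0.08. The PURPL-OE libraries held 16.7 to 43.9 CPM of C3 and the sgPURPL libraries 15.2 to 23.7 CPM, all below Ctrl. CD46, a complement inhibitor on the cell surface, measured 247, 251 and 235 CPM in Ctrl and 249.1, 247 and 254 CPM in sgCtrl, with overlapping groups, and differed by -0.46 (adjusted p = 4.98e-06) with the GC offset. In antigen presentation 9 of 17 were higher in Ctrl and 5 in sgCtrl (median 0.26), and 11 and 2 with the GC offset (median 0.63). B2M, the invariant chain of class I molecules, measured 2559, 2598 and 2624 CPM in Ctrl and 1146, 962 and 1015 CPM in sgCtrl, while HLA-C, which shares reads with its paralogs, went from -1.29 to 0.12 with the GC offset.

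**Figure D3:**
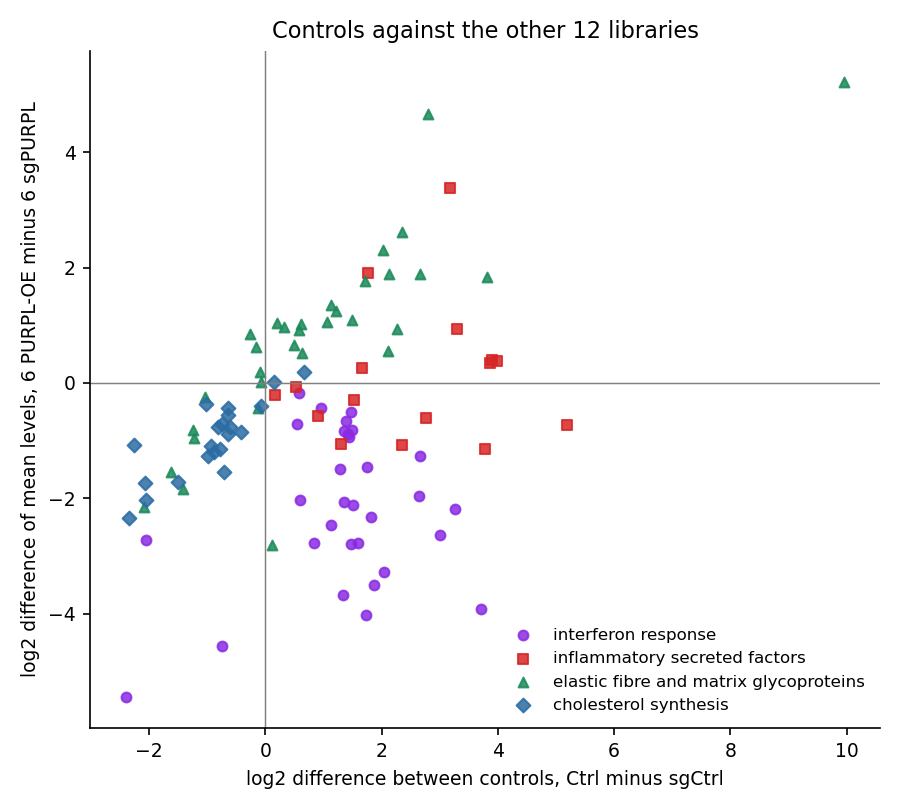
Each point is a tested gene of 4 lists; the horizontal axis is the log2 difference between the controls (Ctrl minus sgCtrl) and the vertical axis the log2 difference between mean levels of the 6 PURPL-OE and 6 sgPURPL libraries. Interferon genes (28 of 31 higher in Ctrl) lie at lower right, below 0 on the vertical axis, while matrix and cholesterol genes mostly run from lower left to upper right.

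Matrix genes were mostly higher in Ctrl. Of 32 elastic fibre and matrix glycoprotein genes 20 were higher in Ctrl and 7 in sgCtrl, with a median of 0.60, and 24 and 4 with a median of 0.94 under the GC offset. POSTN (chr13:37562583-37598844), the matricellular protein periostin, measured 253, 226 and 261 CPM in Ctrl and 0.173, 0.465 and 0.0781 CPM in sgCtrl, where it had 9 counts in all. Its difference of 9.95 ± 0.18 (SE, adjusted p = 7.56e-24) was the largest among genes named here that had counts in both controls. VCAN, a large proteoglycan of loose matrix, measured 93.0, 96.4 and 90.4 CPM against 5.80, 5.12 and 8.98 CPM, at 3.81 ± 0.12 (adjusted p = 3.32e-18). MGP, an inhibitor of calcification, and MFAP5, a microfibril protein, differed by 2.80 ± 0.21 and 2.66 ± 0.11. FBLN5, which helps to assemble elastic fibres, measured 204, 215 and 193 CPM and 218, 217 and 215 CPM, and ELN, elastin itself, 60.4, 53.9 and 65.8 CPM and 55.3, 58.5 and 53.2 CPM. FBLN5 and ELN did not pass the test (adjusted p = 0.287 and 0.242), and ELN differed by 1.37 with the GC offset. Of the 20 genes higher in Ctrl, 18 also had all PURPL-OE libraries above all sgPURPL libraries, beside 63.6% of all genes higher in Ctrl. POSTN was among them, with 65.9 to 111 CPM against 1.33 to 2.36 CPM.

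Collagen genes were divided, and more of them were higher in Ctrl with the GC offset. Of 24, 12 were higher in Ctrl and 8 in sgCtrl (median 0.12), and with the GC offset 16 and 2 (median 1.12). COL14A1, which binds to collagen fibrils, measured 5.30, 6.12 and 4.05 CPM in Ctrl and 0.173, 0.388 and 0.703 CPM in sgCtrl, at 3.58 ± 0.32 (SE, adjusted p = 2.27e-10). The fibrillar COL1A1 measured 3622, 3957 and 3787 CPM against 1500, 1709 and 1562 CPM, at 1.25 ± 0.08, and 2.46 with the GC offset. COL18A1, a basement membrane collagen that is uncertain by overlap, was higher in sgCtrl, at 160, 177 and 144 CPM against 27.8, 29.6 and 27.99 CPM, a difference of -2.50 that was -0.48 with the GC offset. In each of these genes the groups did not overlap. Among proteases and their inhibitors 4 of 20 were higher in Ctrl and 12 in sgCtrl (7 and 9 with the GC offset). The collagenase MMP1 measured 598, 624 and 611 CPM in Ctrl against 188, 180 and 181 CPM in sgCtrl, while the stromelysin MMP3 measured 231, 225 and 248 CPM against 720.5, 639 and 645 CPM.

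Contractile and TGF-beta responsive genes were divided, 9 of 20 higher in Ctrl and 8 in sgCtrl (median 0.12), and 9 and 6 (0.09) with the GC offset. ACTG2, a smooth muscle actin, had 66, 71 and 27 counts in the Ctrl libraries and 0 in sgCtrl, at least 29.4-fold higher in Ctrl. MYOCD, a coactivator of smooth muscle genes, measured 11.55, 11.9 and 11.36 CPM against 0.606, 0.388 and 1.17 CPM. ACTA2, the actin of myofibroblasts, measured 51.9, 54.4 and 47.8 CPM against 28.9, 30.3 and 27.9 CPM, at 0.83 ± 0.08 (SE, adjusted p = 1.63e-09). CNN1, calponin, and CCN2, a matricellular target of TGF-beta, did not pass the test, at 0.02 ± 0.09 (adjusted p = 0.817) and -0.14 ± 0.07 (adjusted p = 0.0779), though CNN1 differed by 0.94 with the GC offset, and CCN2 by 0.21 (adjusted p = 0.00687) with the GC and span offset. Targets of YAP and TEAD were more often higher in sgCtrl, 9 of 14 against 2 (7 and 3 with the GC offset). AJUBA (chr14:22971177-22982551), a scaffold protein of the Hippo pathway that is uncertain by overlap, measured 0.637, 0.563 and 0.526 CPM in Ctrl and 27.8, 27.5 and 25.8 CPM in sgCtrl, at -5.53 ± 0.16 (adjusted p = 9.25e-20).

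Ligands and antagonists of growth and patterning pathways differed gene by gene. Over all genes 34.9% were higher in Ctrl and 35.7% in sgCtrl, and 31.1% and 30.3% with the GC offset. Of 28 growth factors and binding proteins 13 were higher in Ctrl and 10 in sgCtrl (14 and 9 with the GC offset). FGF7, a fibroblast signal to keratinocytes, measured 111, 103 and 116 CPM in Ctrl and 17.4, 20.8 and 21.8 CPM in sgCtrl, and HGF, which acts on epithelium, 32.3, 33.8 and 27.9 CPM against 5.28, 5.82 and 6.09 CPM. The BMP antagonist GREM1 was higher in sgCtrl, at 22.9, 21.8 and 22.8 CPM against 5.18, 5.63 and 5.68 CPM. Of 22 Wnt pathway genes 12 were higher in Ctrl and 8 in sgCtrl (13 and 6 with the GC offset). The ligand WNT2 had 288 counts over the Ctrl libraries and 3 over the sgCtrl libraries, and the antagonist DKK2, uncertain by overlap, measured 5.38, 5.92 and 7.47 CPM against 0.260, 0.388 and 0.156 CPM. In BMP signalling and its ID targets 5 of 18 were higher in Ctrl and 6 in sgCtrl (6 and 5 with the GC offset). The antagonist NOG measured 0.279, 0.161 and 0.210 CPM in Ctrl against 1.82, 2.33 and 1.72 CPM in sgCtrl, a difference of -3.13 that was -2.17 with the GC offset. In the sgPURPL libraries NOG lay at 4.08 to 6.05 CPM.

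Positional genes were partly shared. Their counts stand beside 34.9% higher in Ctrl and 35.7% in sgCtrl over all genes (31.1% and 30.3% with the GC offset). Of 38 HOX genes listed 17 were tested, 4 higher in Ctrl and 7 in sgCtrl (median -0.24), and 7 and 7 with the GC offset (0.15). HOXA13, a gene of the most distal body positions, measured 116, 114 and 108 CPM in Ctrl and 115, 125 and 124 CPM in sgCtrl, with overlapping groups (adjusted p = 0.177), and differed by -0.35 with the GC offset. HOXA7 and HOXC10 (chr12:53985065-53990279, uncertain by overlap) were higher in sgCtrl, at 9.87, 7.83 and 7.34 CPM against 2.19, 2.05 and 1.58 CPM and at 11.9, 9.23 and 8.90 CPM against 2.19, 2.86 and 2.998 CPM. Among 28 other positional factors 13 were higher in Ctrl and 12 in sgCtrl (15 and 10 with the GC offset). LHX8, a LIM homeobox gene, had 10, 13 and 13 counts in the sgCtrl libraries and 0 in Ctrl, at least 22.3-fold higher in sgCtrl. Its relative LHX9 went the other way, at 4.02, 4.55 and 4.63 CPM in Ctrl against 0.520, 0.155 and 0.234 CPM in sgCtrl. Both kept that order in the other cultures, with LHX8 at 3.48 to 9.48 CPM in the sgPURPL libraries and 0 to 0.0467 CPM in the PURPL-OE libraries.

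Genes of DNA replication were higher in sgCtrl, while mitotic genes were divided without the GC offset and more often higher in sgCtrl with it. Of 34 replication genes 3 were higher in Ctrl and 22 in sgCtrl (median -0.40), and 1 and 23 with the GC offset (-0.41). TK1, thymidine kinase of S phase, measured 4.18, 3.50 and 4.26 CPM in Ctrl and 28.9, 33.8 and 27.2 CPM in sgCtrl, at -2.92 ± 0.12 (SE, adjusted p = 8.68e-17), and -1.48 with the GC offset. CDT1, which licenses replication origins, measured 0.518, 0.966 and 0.473 CPM against 5.63, 5.04 and 3.83 CPM, a difference of -2.84 that was -1.14 with the GC offset. RRM1, a subunit of ribonucleotide reductase, measured 95.3, 102 and 96.8 CPM and 100.3, 97.7 and 101 CPM, with overlapping groups, and differed by -0.28 (adjusted p = 0.000914) with the GC offset. Of 35 mitotic genes 9 were higher in Ctrl and 12 in sgCtrl (median 0.02), and 2 and 19 with the GC offset (-0.29). UBE2C, a ubiquitin carrier of the anaphase-promoting complex, measured 4.02, 3.66 and 3.58 CPM in Ctrl and 15.2, 14.8 and 14.99 CPM in sgCtrl, at -1.99 ± 0.13 (adjusted p = 6.07e-13). The topoisomerase TOP2A, at 236, 227 and 228 CPM and 237, 214 and 230 CPM, did not pass the test (adjusted p = 0.792), and differed by -0.37 with the GC offset. MKI67, the Ki-67 antigen of cycling cells, was higher in Ctrl, at 383, 371 and 401 CPM against 226, 291 and 329 CPM, by 0.45 ± 0.10 (adjusted p = 0.000412).

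CDKN1A (chr6:36676460-36687337), the cell cycle inhibitor p21, was higher in sgCtrl and measured 80.4, 83.4 and 75.1 CPM in Ctrl and 209, 203 and 192 CPM in sgCtrl. The groups lay -1.34 ± 0.07 apart (SE, adjusted p = 1.96e-14), and -0.55 with the GC offset. GDF15 (chr19:18374731-18389176), a stress cytokine that is uncertain by overlap, measured 5.78, 6.92 and 5.10 CPM against 44.5, 45.4 and 42.2 CPM, and FDXR, a mitochondrial reductase, 4.26, 4.02 and 3.31 CPM against 18.9, 18.4 and 18.0 CPM. With the GC offset GDF15 went from -2.88 to -1.43 and FDXR from -2.24 to -0.95. BBC3, the death gene PUMA, had a difference of -2.19 without and 0.14 with the GC offset. MDM2, a ubiquitin ligase, measured 222, 211 and 223 CPM in Ctrl and 210, 202 and 207 CPM in sgCtrl (adjusted p = 0.292), and differed by -0.22 (adjusted p = 0.00643) with the GC offset.

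A panel of arrest markers held differences both ways. Of 12, 3 were higher in Ctrl and 4 in sgCtrl (median -0.02), and 2 and 3 with the GC offset. Over all genes the shares were 34.9% and 35.7%, and 31.1% and 30.3% with the GC offset. Differences ran from -2.95 to 0.82, with 3 genes 2-fold or more higher in sgCtrl and 0 in Ctrl. These counts give no direction of arrest, because LMNB1 falls in senescence where other markers rise. CDKN2A, the locus of p16 and ARF, measured 11.1, 11.2 and 10.1 CPM in Ctrl and 5.97, 6.51 and 5.85 CPM in sgCtrl, at 0.82 ± 0.13 (SE, adjusted p = 4.98e-06), and 2.06 with the GC offset. LMNB1, a lamin lost in senescence, measured 30.4, 25.2 and 25.7 CPM against 18.4, 19.2 and 17.1 CPM. CDKN2B and the lysosomal galactosidase GLB1 did not pass the test, at 0.01 ± 0.11 (adjusted p = 0.943) and -0.05 ± 0.09 (adjusted p = 0.615).

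Cholesterol synthesis was higher in sgCtrl, with 17 of 21 enzymes and regulators against 1 higher in Ctrl (median -0.78), and 15 and 0 with the GC offset (-0.69). The mevalonate enzymes MVD, PMVK and MVK each lay lower in Ctrl, MVD and PMVK at -0.80 and -1.09 with the GC offset against -2.34 and -2.07 without. MVK measured 4.42, 4.31 and 4.26 CPM in Ctrl and 18.7, 18.0 and 17.6 CPM in sgCtrl, at -2.06 ± 0.12 (SE, adjusted p = 7.44e-14), and -1.25 with the GC offset. MSMO1, a later step of the pathway, measured 66.6, 65.6 and 72.0 CPM and 72.1, 69.6 and 72.3 CPM (adjusted p = 0.3999), and differed by -0.48 (adjusted p = 3.16e-06) with the GC offset. Fatty acid synthesis was divided, with 5 of 13 genes higher in Ctrl and 7 in sgCtrl (median -0.31), and 5 and 6 with the GC offset (-0.21). FASN (chr17:82078338-82098294), the fatty acid synthase, had the largest difference of that list. It measured 7.33, 9.62 and 7.94 CPM in Ctrl and 97.8, 118 and 101 CPM in sgCtrl, at -3.67 ± 0.10 (adjusted p = 3.90e-20), and -1.90 with the GC offset. All 17 genes of the cholesterol list that were higher in sgCtrl had all sgPURPL libraries above all PURPL-OE libraries. Among all genes higher in sgCtrl this share was 75.7%. FASN lay at 88.5 to 132 CPM in the sgPURPL libraries and 4.95 to 6.95 CPM in the PURPL-OE libraries.

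Ribosomal protein genes were higher in sgCtrl, 46 of 70 against 2 (median -0.41), and 53 and 3 with the GC offset (-0.41). Of the 70, 35 are uncertain by overlap, and processed pseudogenes may share their reads. RPS15 measured 11.5, 12.3 and 8.995 CPM in Ctrl and 92.6, 82.6 and 72.8 CPM in sgCtrl, at -2.91 ± 0.11 (SE, adjusted p = 2.95e-17), and -1.85 with the GC offset, while RPL14, at 611, 627 and 631 CPM and 669, 600 and 583 CPM, had overlapping groups, and differed by -0.21 (adjusted p = 0.0194) with the GC offset. Oxidative phosphorylation had 16 of 28 higher in sgCtrl and 3 in Ctrl (18 and 1 with the GC offset). In the same order, glycolysis and hypoxia had 19 of 29 and 4 (17 and 4), and lysosome 19 of 27 and 2 (17 and 3). The shares over all genes were 35.7% and 34.9% (30.3% and 31.1%). UQCRQ, a subunit of respiratory complex III, measured 75.2, 70.0 and 89.6 CPM in Ctrl and 338, 274 and 285 CPM in sgCtrl. ADM, a peptide hormone that hypoxia induces, measured 120, 131 and 123 CPM against 512, 512 and 438 CPM, and GAA, the lysosomal glucosidase, 5.85, 6.399 and 6.21 CPM against 33.3, 33.9 and 25.0 CPM. With the GC offset ADM went from -1.97 to -1.12 and GAA from -2.32 to -0.71.

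Stress genes were divided. For all genes the shares were 34.9% higher in Ctrl and 35.7% in sgCtrl, and 31.1% and 30.3% with the GC offset. Of 22 genes of the oxidative stress response 5 were higher in Ctrl and 12 in sgCtrl (5 and 11 with the GC offset). HMOX1, which breaks down heme, measured 6.53, 7.16 and 4.997 CPM in Ctrl and 27.97, 30.1 and 29.3 CPM in sgCtrl, at -2.21 ± 0.12 (SE, adjusted p = 7.63e-15), and -1.42 with the GC offset. SLC7A11, the cystine importer, went the other way, at 237, 216 and 225 CPM against 55.7, 63.5 and 74.9 CPM. Of 24 immediate early genes 12 were higher in Ctrl and 10 in sgCtrl (14 and 5 with the GC offset). EGR1, a transcription factor induced by serum, measured 32.7, 33.0 and 35.0 CPM in Ctrl and 6.49, 4.50 and 4.92 CPM in sgCtrl, while JUNB measured 0.996, 1.73 and 1.84 CPM against 9.44, 7.52 and 6.01 CPM. JUNB went from -2.34 to -0.63 with the GC offset, and did not pass with the GC and span offset, at -0.40 (adjusted p = 0.101).

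**Figure D4:**
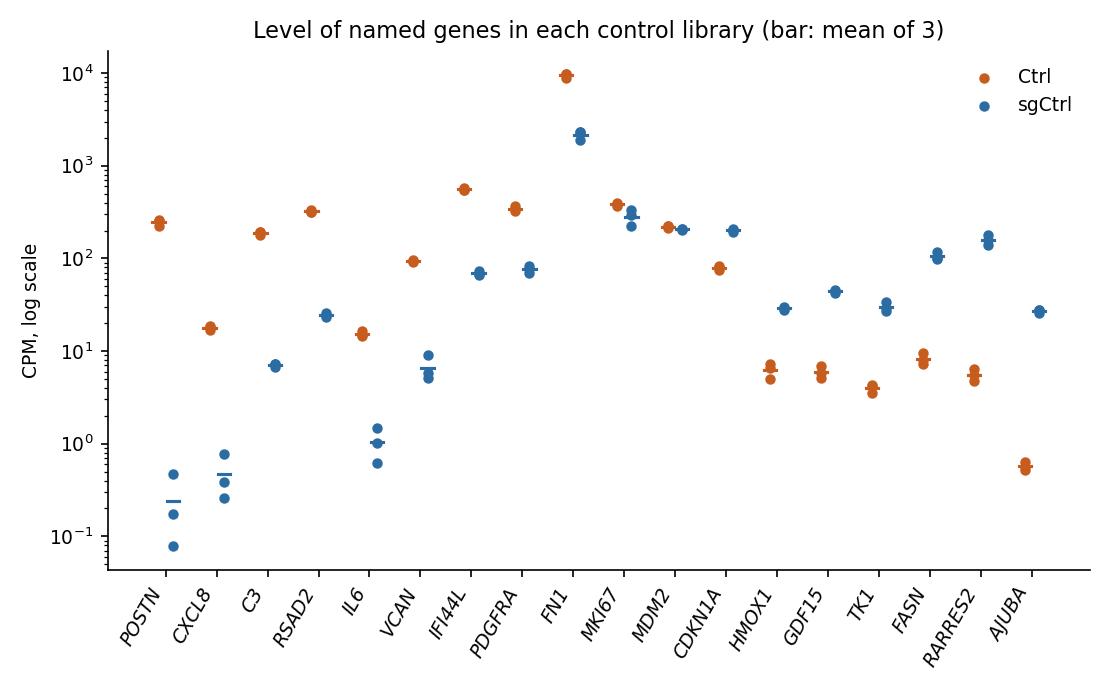
CPM on a log axis of 18 genes in each of the 3 Ctrl and 3 sgCtrl libraries, with bars at the means. Points of POSTN, CXCL8, C3 and RSAD2 in Ctrl lie far above those in sgCtrl, MDM2 and MKI67 lie close together, and FASN, RARRES2 and AJUBA lie far above in sgCtrl.

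Among genes of at least 5 CPM on average, the 12 with the largest difference toward Ctrl were POSTN, HEPH, KCNJ3, EDIL3, CXCL8, PCDH7, RTP4, SRD5A2, C3, OLFML1, TNFSF18 and NFE2L3. They include a copper oxidase (HEPH), an adhesion protein of vessels (EDIL3), a protocadherin (PCDH7) and the steroid reductase SRD5A2. HEPH measured 17.4, 17.1 and 15.6 CPM in Ctrl and 0.520, 0.310 and 0.234 CPM in sgCtrl, and EDIL3 43.8, 36.2 and 42.8 CPM against 0.779, 0.931 and 1.41 CPM. In 8 of the 12 the PURPL-OE libraries all lay above the sgPURPL libraries, beside 59.1% of all genes 2-fold or more higher in Ctrl. With the GC offset their differences were 4.04 to 9.56.

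Toward sgCtrl the 12 were ZIM3, AJUBA, BORCS6, RARRES2, MFSD10, CYBA, CCDC85B, MRPL41, CPTP, NPAS1, C1orf35 and MRPS12. RARRES2, the adipokine chemerin, measured 6.33, 5.47 and 4.79 CPM in Ctrl and 180, 157 and 140 CPM in sgCtrl, at -4.83 ± 0.11 (SE, adjusted p = 3.74e-21), and -3.02 with the GC offset. CYBA, a subunit of NADPH oxidases, measured 4.46, 4.87 and 4.52 CPM against 108, 94.4 and 92.7 CPM, at -4.41 ± 0.10 (adjusted p = 7.23e-22), and -3.19 with the offset. MRPL41, a mitochondrial ribosomal protein with 71.9% GC in its transcript, moved most with the offset, from -4.19 to -1.57. NPAS1, CPTP, CCDC85B, MFSD10, C1orf35, MRPS12 and BORCS6 stood at -1.76, -2.10, -2.14, -2.60, -3.18, -3.22 and -3.79 with it, against differences of -4.04 to -5.03 without. In all 12 the sgPURPL libraries lay above the PURPL-OE libraries, beside 89.2% of all genes 2-fold or more higher in sgCtrl.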

How the data were processed

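Poly(A) RNA was sequenced in 150-base pairs, without molecular identifiers, per the labels' protocols. The authors deposited raw read counts per gene in one table per experiment, each of 61544 genes. Named per the submitters' processing notes, without their roles, are the builds hg38 and GRCh38.p13 and the tools HISAT2 2.1.0, featureCounts 2.0.1, Subread, cutadapt 3.3, FastQC 0.11.9, DESeq2 1.34.0 and SAMtools 1.11. Annotation release and strand setting are not stated in the sources used here. All 9429 genes nested in another on their strand have 0 counts, and no rows lack a gene. Columns left unused numbered 0.

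The 6 control libraries were fitted together in R 4.3.3 with edgeR 4.0.16: filterByExpr (min.count 10, min.total.count 15), TMM scaling (factors 0.985 to 1.01), robust quasi-likelihood test with 4 residual degrees of freedom, Benjamini-Hochberg adjustment over all genes tested. Levels in the other 12 libraries were scaled over all 18. GC content came from the longest reference transcript, and offsets from a loess per library (span 0.3). DESeq2 1.42.0 and limma 3.58.1 served as alternatives. The fit was tested on simulated data. Promoters came from RefSeq.

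The members, the 49 gene lists and the rules were chosen with earlier results of these data known. Named genes were the 12 with the largest difference each way (at least 5 CPM on average, adjusted p under 0.05, groups not overlapping), up to 4 of the largest and up to 2 of the smallest differences per list, a fixed panel and cell type markers. Exceptions are said in the text. A gene of the panel and a gene list are not reported here. Floors cover counting error only.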

Additional observations from a re-analysis of the deposited data

How the results depend on the processing

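Leaving out each library in turn gave 9468 to 10105 genes past the threshold, 4596 to 5018 higher in Ctrl and 4803 to 5087 in sgCtrl, and at 2-fold or more 1181 to 1476 and 2380 to 2608. With the replicate number as a block 10020 genes passed, 4952 and 5068. Same-numbered libraries deviated from their group means with correlations of -0.004, 0.026 and 0.012. Ctrl replicate 1 correlated best with sgCtrl replicate 3, at 0.026, while Ctrl replicates 2 and 3 correlated best with the sgCtrl library of their number. Values this small do not decide whether the libraries were paired. With a test against a fold of 1.5, 4578 genes passed, 1691 and 2887, and the share higher in Ctrl was 36.9% against 49.5%. A min.count of 50 left 749 genes 2-fold or more higher in Ctrl. In sgCtrl these were 1009 with the GC offset, 938 with a further offset on gene span, and 1014 with the GC offset and the block. Without a filter the median of all genes was 0.11. Of the genes past the threshold, 61.4% had 9 against 9 libraries of the tables that did not overlap, in the same direction, and 69.7% had 6 against 6 without the controls. Reversed values with the GC offset, and then with GC and span, were APOE 0.50 and 0.69, ARHGEF17 0.36 and 0.32, BBC3 0.14 and 0.25, CEBPB 0.50 and 0.73, GAPDH 0.41 and 0.59, HLA-C 0.12 and 0.31, ITGB1 -0.0091 and -0.13, MDM2 -0.22 and -0.21, PDGFRB 0.49 and 0.48, SREBF1 0.24 and 0.28, THY1 0.38 and 0.52, and TOP2A -0.37 and -0.34. RPL14 was -0.21 with the GC offset, and CCN2 was 0.21, IRF7 0.11, HOXA11-AS 0.043 and HSPB1 0.059 with GC and span. The median of the metallothionein list was 0.31 at a min.count of 50 against -1.25, with fewer genes tested; for the others the cause was not tested. DESeq2, limma and the other scalings kept all counts within 1.5 times. So did thinning the 6 control libraries to 11490437 counts, the total of the shallowest. Which of vector, culture, passage and experiment differ cannot be told apart.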

Other observations

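Besides ACTG2, 10 genes had at least 10 counts in every Ctrl library and 0 in all sgCtrl libraries, and besides ZIM3 only LHX8 had the reverse. EGFL6, a secreted protein with EGF-like repeats that is uncertain by overlap, had 24, 34 and 39 counts in Ctrl, at least 17.4-fold higher than in sgCtrl. TRIM58, a ubiquitin ligase, had 27, 42 and 13 counts, at least 14.7-fold higher. These genes were found after the values were seen.

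Mechanosensitive channels differed in opposite directions. PIEZO2 measured 69.3, 66.8 and 71.5 CPM in Ctrl and 10.8, 14.9 and 14.3 CPM in sgCtrl, at 2.37 ± 0.10 (SE, adjusted p = 4.58e-17), and 2.25 with the GC offset. PIEZO1 measured 83.4, 71.8 and 89.0 CPM against 364, 463 and 373 CPM, at -2.30 ± 0.10 (adjusted p = 4.50e-16), and -0.66 with the GC offset. Both are uncertain by overlap. Among 28 axon guidance genes 11 were higher in each control (18 in Ctrl and 8 in sgCtrl with the GC offset). Shares over all genes were 34.9% in Ctrl and 35.7% in sgCtrl (31.1% and 30.3% with the GC offset). The ligand EFNB1 measured 2.23, 1.65 and 2.53 CPM in Ctrl and 12.2, 15.5 and 12.7 CPM in sgCtrl, and -1.55 was its difference with the GC offset.

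Of 13 replication-dependent histone genes tested, whose main transcripts lack a poly(A) tail, 4 were higher in Ctrl and 7 in sgCtrl (4 and 8 with the GC offset). H1-2, a linker histone, measured 10.99, 12.4 and 10.99 CPM in Ctrl and 59.5, 51.3 and 54.8 CPM in sgCtrl, at -2.27 ± 0.09 (SE, adjusted p = 3.22e-17), and -1.55 with the GC offset. The summed level of the whole list was 1385 to 1761 CPM in Ctrl and 1292 to 1350 CPM in sgCtrl.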
